A study of Mus musculus with 2 samples.

Results

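The insulin-like growth factor (IGF) system was followed across the cells of aged mouse hindlimb muscle. Its 10 genes, matched by symbol among the 32285 genes of both count matrices, were the ligands Igf1 and Igf2, the receptors Igf1r and Igf2r, and the secreted binding proteins Igfbp2, Igfbp3, Igfbp4, Igfbp5, Igfbp6 and Igfbp7. Single cells were prepared from quadriceps and gastrocnemius of 24-month-old female C57Bl/6J mice that had received 3 intramuscular injections, of either all-trans retinoic acid with CD3254 (an agonist of RXR-alpha) and BMS961 (an agonist of RAR-gamma), called ATRA+agonist, or the solvent alone, called DMSO vehicle. Each group was 1 library of viable sorted cells from 2 pooled mice, and no label told the pooled mice apart. No replicate exists, no test was run, and every difference below is one between 2 libraries.

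As background, IGF ligands act through Igf1r, a receptor tyrosine kinase that feeds the PI3K and AKT kinases, and in muscle this signal drives growth and supports satellite cells. Igf2r clears Igf2 and sorts lysosomal enzymes. The binding proteins hold the ligands outside the cell, prolong their life and limit or deliver them to the receptor, and proteases such as Pappa and Htra1 cut the binding proteins.

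The libraries held 65197625 UMIs (unique molecular identifiers, 1 per captured transcript) in 10444 barcodes for ATRA+agonist and 109343486 in 17394 for DMSO vehicle. Hemoglobin took 24.0% and 50.8% of these UMIs. After filtering, 6907 and 6953 cells remained, with median depths of 4705 and 4847 UMIs, and 10 of the kept barcodes occurred in both libraries. Cells were sorted into classes from marker genes, with the ending "-like" because the names were rebuilt here, and 7 classes with at least 100 cells in each library were compared. They were endothelial-like cells (1921 and 2123, ATRA+agonist first), fibro-adipogenic progenitor (FAP)-like cells (1336 and 1644), tenocyte-like cells (162 and 500), muscle stem cell (MuSC)-like cells (414 and 531), smooth muscle or pericyte-like cells (233 and 325), Schwann-like cells (137 and 391) and monocyte or macrophage-like cells (504 and 380). A further 1874 cells, 13.5% of those kept, remained unnamed. They included a cluster of low depth (644 and 376 cells) in which all 9 endothelial markers were raised. Levels are CPM, the UMIs of a gene per 1000000 UMIs of the class, with exact Poisson 95% intervals, and ratios are log2 of ATRA+agonist over DMSO vehicle with exact 95% intervals. Both intervals cover counting error only and leave out differences between mice.

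Of the 14 RefSeq promoters of these 10 genes (GRCm38.p6, 250 bases before to 50 after the start), 5 held a half-site of the retinoic acid response element, searched on both strands as the motif AGGTCA, the motif AGTTCA, the motif GGGTCA or the motif GGTTCA, whereas 43.7% of all 32851 promoters held one. Igf1 had AGGTCA 161 bases before its start, inside an exon of a longer Igf1 transcript in GENCODE M21, and Igf1r had it on the opposite strand 86 bases before its start. The first Igf2 promoter held 3 half-sites and that of Igf2r held 2. The bases before the start are shown for Igfbp3, Igfbp5 and Igfbp6, which were among the binding proteins past 1.5-fold in tenocyte-like cells. They lie at chr11:7213924-7214173 on the minus strand, chr1:72874885-72875115 on the minus strand and chr15:102143936-102144185 on the plus strand, outside every annotated exon, and capitals mark the half-site. For Igfbp5, the 19 bases nearest the RefSeq start lie in an annotated exon and are left out.
Igfbp3: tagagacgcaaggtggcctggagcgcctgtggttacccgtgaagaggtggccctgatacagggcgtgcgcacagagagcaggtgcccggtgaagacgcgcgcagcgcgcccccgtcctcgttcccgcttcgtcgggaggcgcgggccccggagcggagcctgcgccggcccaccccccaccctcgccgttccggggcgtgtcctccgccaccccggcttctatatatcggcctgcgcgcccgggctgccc
Igfbp5: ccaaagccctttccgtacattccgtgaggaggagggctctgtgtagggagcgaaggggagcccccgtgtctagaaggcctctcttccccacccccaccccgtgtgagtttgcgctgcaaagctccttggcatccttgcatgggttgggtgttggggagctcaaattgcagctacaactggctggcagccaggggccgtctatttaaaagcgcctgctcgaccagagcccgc
Igfbp6: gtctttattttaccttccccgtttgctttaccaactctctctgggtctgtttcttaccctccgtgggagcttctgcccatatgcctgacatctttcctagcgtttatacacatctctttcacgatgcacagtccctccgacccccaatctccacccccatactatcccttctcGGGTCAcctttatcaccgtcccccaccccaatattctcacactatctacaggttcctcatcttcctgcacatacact

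Igfbp6 held GGGTCA 77 bases before its start, and a second half-site, GGTTCA, 19 bases after it. None of the 4 half-sites was found in the searched promoter of Igfbp3, Igfbp4, Igfbp5 or Igfbp7, or in those of Igfbp2. A match describes the letters only.

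Igf1, the ligand that muscle makes locally under growth hormone, was mainly a FAP-like transcript. In FAP-like cells its level was 541 CPM (529 to 554) with ATRA+agonist and 534 CPM (522 to 547) with DMSO vehicle, and these cells held 82.9% and 83.0% of all Igf1 UMIs of the kept cells. Tenocyte-like cells followed with 356 and 228 CPM, then monocyte or macrophage-like cells with 157 and 146 CPM and MuSC-like cells with 23.7 and 23.9 CPM. Each of these classes lay above the next in both libraries. Smooth muscle or pericyte-like cells had no Igf1 UMI. Within the FAP-like cells, the Gdf10 group was highest (776 and 664 CPM), followed by the Cxcl14 group (541 and 569 CPM) and the Pi16 group (343 and 328 CPM). Among the macrophage-like clusters, the one with Lyve1, a marker of resident macrophages, had 400 and 354 CPM, whereas the cluster led by Retnla and Fn1 had 11.1 and 1.16 CPM (19 UMIs and 1 UMI).

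Igf2, the imprinted fetal growth factor, was low in every class and had a different source. MuSC-like cells had 81.7 CPM with ATRA+agonist and 92.2 CPM with DMSO vehicle, and smooth muscle or pericyte-like cells had 89.6 and 53.9 CPM, so that the order of these classes differed between the libraries. The highest Igf2 level of any cluster with at least 10 cells per library was in arterial endothelial-like cells (370 and 233 CPM, log2 ratio 0.66, 0.36 to 0.97), while the largest endothelial-like cluster, with Aqp1 and Kdr in the lead, had 9.04 and 4.60 CPM. B cell-like, T cell or NK-like and neutrophil-like cells, 983 cells that served as a background, held no Igf2 UMI among 7094187 UMIs, which allows up to 0.423 CPM (3 counts). The same background was 0.564 CPM for Igf1 and for Igfbp3, 0.846 CPM for Igfbp4, 0.705 CPM for Igfbp5, 5.22 CPM for Igfbp6 and 4.09 CPM for Igfbp7. These values pool both libraries, whose background cells differed (622 and 33 B cell-like, 17 and 150 neutrophil-like). For Igfbp6 the background was 2.65 CPM with ATRA+agonist and 11.0 CPM with DMSO vehicle.

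Igf1r, the signaling receptor, was present in each of the 7 classes. It ranged from 427 and 488 CPM in MuSC-like cells, through 390 and 410 CPM in endothelial-like and 383 and 410 CPM in Schwann-like cells, down to 88.0 and 90.8 CPM in monocyte or macrophage-like cells. MuSC-like and endothelial-like cells did not stand apart beyond their intervals over both libraries, nor did endothelial-like and Schwann-like cells. A small MuSC-like cluster (65 and 40 cells) reached 1139 and 1022 CPM, against 376 and 471 CPM in the large one (349 and 491 cells). The small cluster passed 4 of 8 MuSC markers at a median depth of 2809 UMIs, and the large one all 8 at 7372.5 UMIs. In endothelial-like cells the cluster led by Dach1 and Ccdc85a was highest, with 636 and 781 CPM, at a median depth of only 1634.5 UMIs.

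Igf2r, the clearance receptor, was highest in smooth muscle or pericyte-like cells (308 and 264 CPM) and MuSC-like cells (282 and 315 CPM), whose order differed between the libraries. FAP-like cells had 191 and 172 CPM, and monocyte or macrophage-like cells 11.7 and 16.5 CPM. T cell or NK-like cells had 102 and 101 CPM, so that lymphoid cells do not serve as a background for this gene.

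**Figure D1:**
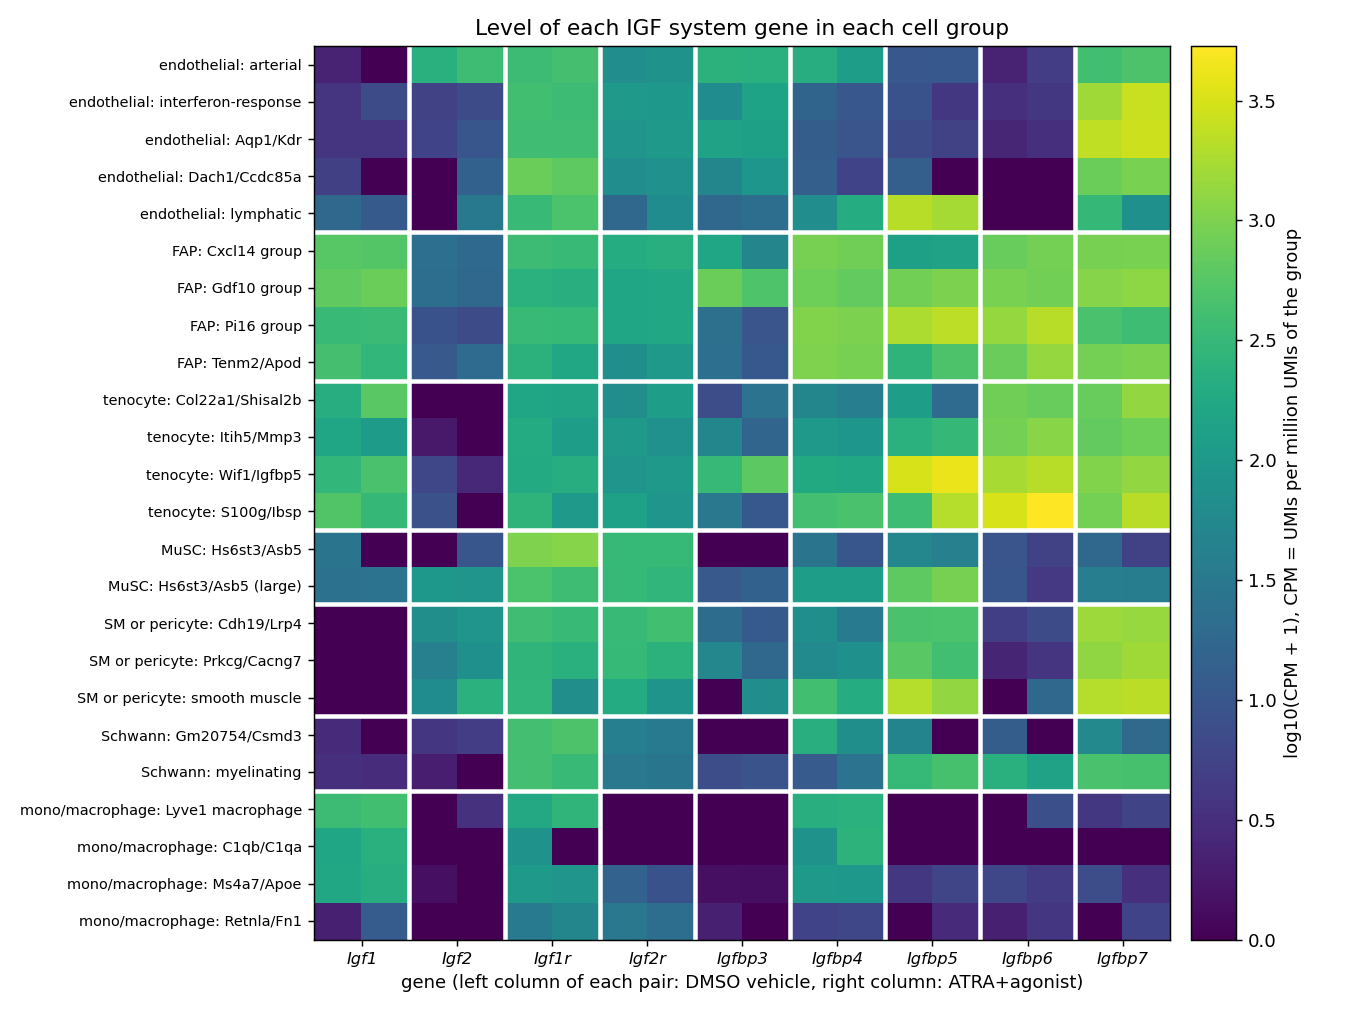
Levels of 9 of the 10 genes, as log10 of CPM plus 1 (color), in the clusters of the compared classes with at least 10 cells per library (rows), with DMSO vehicle at the left and ATRA+agonist at the right of each pair of columns. Igf1 is bright in FAP-like rows (541 and 534 CPM over the class) and dark in smooth muscle or pericyte-like rows, and Igfbp7 is brightest in the Aqp1 and Kdr cluster of endothelial-like cells (2818 and 2377 CPM).

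FAP-like cells held the largest part of the UMIs of Igfbp3 (57.3% and 74.5%), Igfbp4 (88.1% and 84.6%), Igfbp5 (63.3% and 54.5%) and Igfbp6 (83.9% and 64.1%). Igfbp7, which binds IGFs weakly and is abundant in vessel walls, had its highest level among the 7 compared classes in endothelial-like cells (2531 and 1659 CPM), followed by smooth muscle or pericyte-like cells (1560 and 1543 CPM). Perineurial-like cells, which were not compared, had 2617 CPM of Igfbp7 (3 cells) and 1745 CPM (56 cells). In the endothelial-like cells it was lower in the arterial cluster (492 and 391 CPM) than in the cluster led by Aqp1 and Kdr (2818 and 2377 CPM). Igfbp6, which prefers Igf2 as its ligand, was high in tenocyte-like (1927 and 1251 CPM) and FAP-like cells (1211 and 955 CPM). In endothelial-like cells Igfbp6 was not above the background of the same library (2.35 and 1.74 CPM, against 2.65 and 11.0 CPM). The 56 perineurial-like cells of the DMSO vehicle library had 8772 CPM of Igfbp6 (8448 to 9106), and only 3 such cells were found with ATRA+agonist.

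Igfbp5, a binding protein that sticks to the extracellular matrix, was concentrated in particular clusters. Tenocyte-like cells led by Wif1 had 4158 and 3180 CPM, smooth muscle-like cells 1337 and 2052 CPM, Pi16 FAP-like cells 2280 and 1889 CPM, and the 19 and 11 lymphatic endothelial-like cells 1655 and 2152 CPM. The Cxcl14 FAP-like group had 138 and 130 CPM. Igfbp4, which inhibits IGF action until it is cut by Pappa, was a FAP-like transcript (836 and 919 CPM) that the FAP-like groups shared (974 and 1038 CPM in the Pi16 group, 836 and 929 CPM in the Cxcl14 group, 682 and 794 CPM in the Gdf10 group).

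Igfbp3, the main carrier of IGFs in blood, was uneven among FAP-like cells. The Gdf10 group had 502 and 769 CPM, the Cxcl14 group 48.9 and 158 CPM and the Pi16 group 8.46 and 22.5 CPM, an order that was the same in both libraries. Igfbp2 was close to absent, with 6 UMIs in the kept cells of the ATRA+agonist library and 15 in those of the DMSO vehicle library, and it was not compared.

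By the rule of the closest pattern (Pearson r of log2(CPM + 10) over 23 points, each a class in 1 library, among 15290 genes), Igf1 was most like Ang (r = 0.93), Steap3 and Tmem119. Igfbp6 was most like Cdh11, a mesenchymal cadherin (r = 0.97), and Vit was also among its closest. Igf2r was most like Airn (r = 0.98), the antisense transcript that starts inside Igf2r, and then Nckap5l and Gm49959. Airn overlaps Igf2r, and how strand was used in counting is not given in the sources used here. Igf2 was followed by Cdh4, Gm29107 and Bok, and Igf1r by Bmpr2, Sept10 and Fbxo30. Igfbp3 was followed by Adm (adrenomedullin), Muc13 and Msx1, Igfbp4 by Cxcl1, Dlgap4 and Adamtsl4, Igfbp5 by Pknox2, Cacna2d1 and Wdr60, and Igfbp7 by Lzts2, Cavin1 and Runx1t1, all at r between 0.89 and 0.98. The points share 2 libraries and are not independent.

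The comparison of ATRA+agonist with DMSO vehicle sets 1 library against 1 other. An effect of the treatment cannot be told apart in it from a difference between the pooled mice or the libraries. A gene with at least 100 UMIs over both libraries in a class was called different when the ratio reached 1.5-fold. Of 46 pairs of an IGF system gene and a class with enough UMIs, 8 were higher and 5 lower with ATRA+agonist. Over all genes with enough UMIs in the same 7 classes, 3.32% of 50930 gene and class pairs were higher and 4.5% lower. The plot of ratios shows the 13 differences by class. Tenocyte-like cells held 5 of them, among 8 genes, against 10.9% of all genes in that class. MuSC-like cells held none among 7 genes and monocyte or macrophage-like cells none among 4, against 7.07% and 4.58% of all genes. With so few genes at these shares, the absence of a call is not read as a result about either class.

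**Figure D2:**
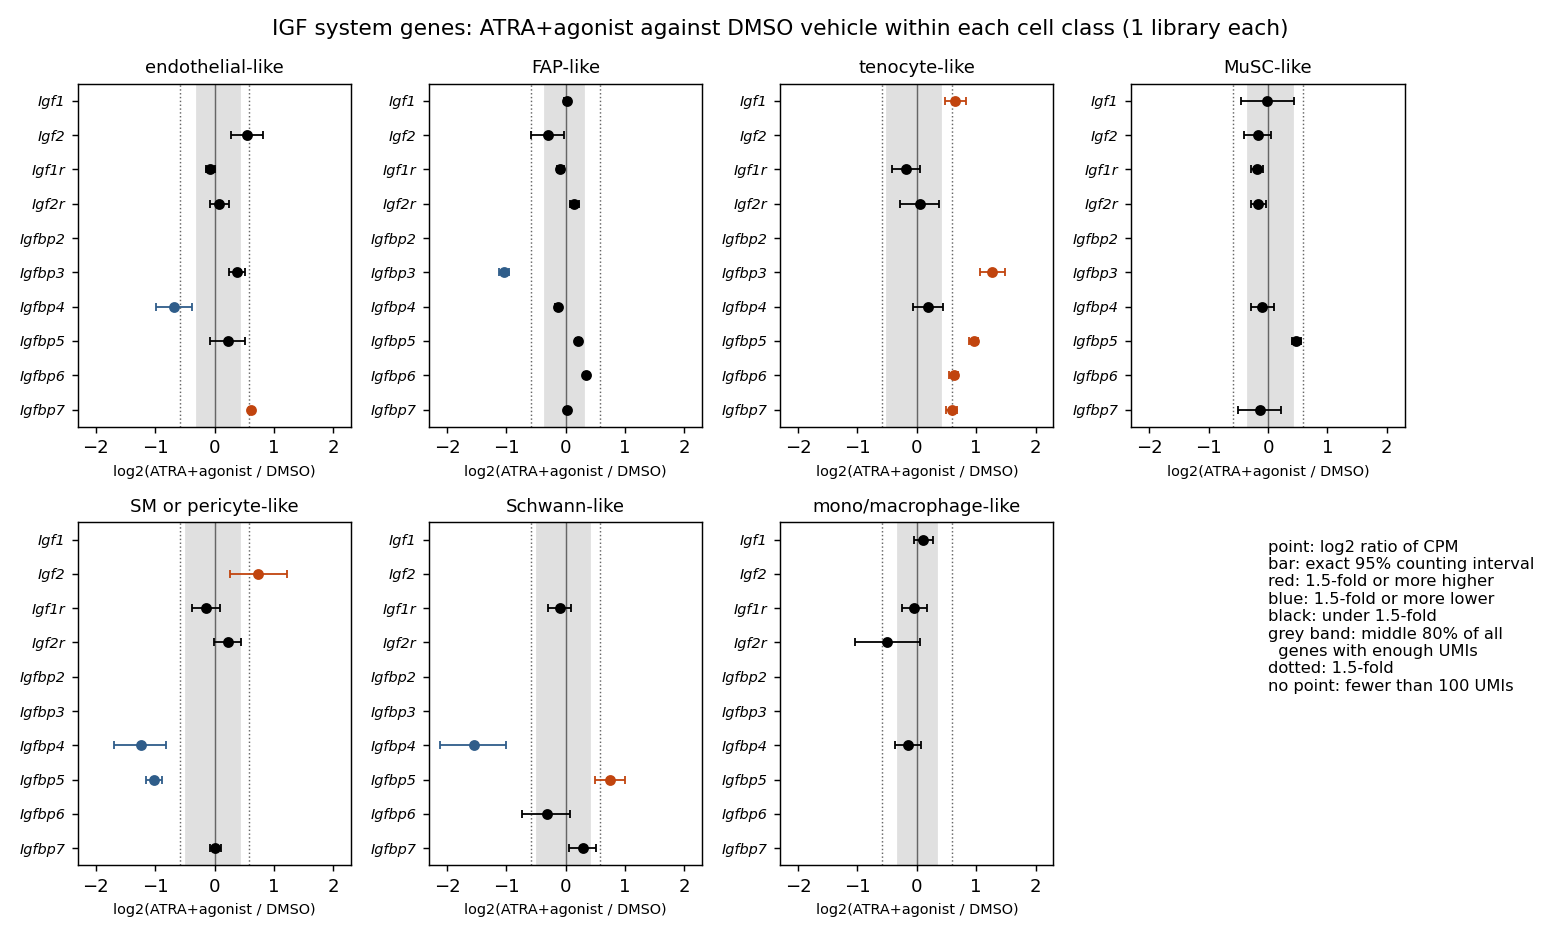
Log2 ratio of CPM, ATRA+agonist over DMSO vehicle (horizontal axis), for each gene (vertical axis) with at least 100 UMIs in a class, with exact 95% counting intervals, 1 library per group. The grey band holds the middle 80% of all genes with enough UMIs, dotted lines mark 1.5-fold, and 5 of the 8 tenocyte-like points lie to the right of the upper line while Igfbp3 in FAP-like cells lies at -1.04.

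In FAP-like cells 1 of 9 genes passed 1.5-fold, against 6.32% of all genes with enough UMIs. This was Igfbp3, with 1977 UMIs and 146 CPM (140 to 153) in the ATRA+agonist library and 4084 UMIs and 299.8 CPM (291 to 309) in the DMSO vehicle library. Its log2 ratio was -1.04 (-1.11 to -0.96). The direction was shared by the FAP-like groups, at -1.69 in the Cxcl14 group (-1.88 to -1.51), -0.62 in the Gdf10 group (-0.70 to -0.53) and -1.41 in the Pi16 group (-2.08 to -0.77). In the Gdf10 group the tenth of cells with the most Igfbp3 UMIs held 80.6% of them with ATRA+agonist and 52.0% with DMSO vehicle. Igfbp3 in FAP-like cells was the only one of the 13 differences that stayed past 1.5-fold in every alternative processing tried, with log2 ratios from -1.30 to -0.82.

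The other FAP-like genes lay under 1.5-fold. Igf1 had a log2 ratio of 0.02 (-0.03 to 0.07), Igfbp7 also of 0.02 (-0.02 to 0.06), and Igfbp4 of -0.14 (-0.17 to -0.10). Igfbp6 had 0.34 over the class (0.31 to 0.38), which came from unlike groups: in the Pi16 group 2133 CPM with ATRA+agonist and 1389 CPM with DMSO vehicle (0.62, 0.57 to 0.67), in the Cxcl14 group 900 and 735 CPM (0.29, 0.23 to 0.35), and in the Gdf10 group 848 and 946 CPM (-0.16, -0.23 to -0.09).

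In tenocyte-like cells, 5 of 8 genes were higher with ATRA+agonist and none lower, against 10.9% of all genes different in either direction. The median log2 ratio of the 8 genes was 0.60, and that of all 6059 genes with enough UMIs was -0.02. Igfbp3 was at 309 CPM (279 to 341) with ATRA+agonist and 128 CPM (115 to 141) with DMSO vehicle, a log2 ratio of 1.27 (1.06 to 1.48). Only 17.9% and 10.4% of the cells had an Igfbp3 UMI, and the tenth of cells with the most held 93.5% and 99.5% of them. With cells thinned to 1000 UMIs, it was detected in 8.13% (4.40 to 13.5) and 5.01% (3.27 to 7.31), which overlap. Igfbp5 was at 2281 and 1177 CPM (0.95, 0.88 to 1.03). Igf1 was at 356 and 228 CPM (0.64, 0.47 to 0.82), Igfbp6 at 1927 and 1251 CPM (0.62, 0.55 to 0.70) and Igfbp7 at 1233 and 822 CPM (0.59, 0.49 to 0.68). Igfbp4, Igf1r and Igf2r lay within 0.19 of 0 on the log2 scale.

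The makeup of the tenocyte-like cells differed between the libraries and moved with these ratios. The cluster led by Wif1 and Igfbp5, where most Igfbp3 and Igfbp5 UMIs were, held 73 of 162 cells with ATRA+agonist and 158 of 500 with DMSO vehicle. Within it Igfbp3 was still at 617 and 318 CPM (0.96, 0.73 to 1.18), but Igfbp5 was at 4158 and 3180 CPM, a smaller log2 ratio of 0.39 (0.31 to 0.46). In the cluster led by Itih5 and Mmp3 Igfbp3 went the other way, at 15.7 and 50.6 CPM (6 and 65 UMIs). FAP markers in the tenocyte-like cells summed to 25331 CPM with ATRA+agonist and 18799 CPM with DMSO vehicle, with all 9 markers detected in both, and their part in the ratios was not tested. With the same cluster shares in both libraries the ratios were 0.72 for Igfbp3, 0.42 for Igfbp5, Igf1 and Igfbp7 and 0.36 for Igfbp6, so that Igfbp3 alone stayed past 1.5-fold. As a mean of the cluster ratios weighted by cells, that of Igfbp3 turned to -0.31, and those of Igfbp5 and Igf1 were 0.08 and 0.17.

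In endothelial-like cells 2 of 7 genes differed, against 7.53% of all genes. Igfbp7 was at 2531 CPM (2493 to 2569) with ATRA+agonist and 1659 CPM (1631 to 1688) with DMSO vehicle, a log2 ratio of 0.61 (0.58 to 0.64). The clusters of these cells were unequally filled: the one led by Aqp1 and Kdr held 1570 and 698 cells, and an interferon-response cluster held 83 and 1050. Within the former the ratio of Igfbp7 was 0.25 (0.20 to 0.29), within the latter 0.75 (0.64 to 0.85), in the arterial cluster 0.33 (0.08 to 0.58) and in the cluster led by Dach1 and Ccdc85a 0.29 (0.03 to 0.54), so that the direction held in these and the size did not. The few lymphatic cells had 7 and 18 Igfbp7 UMIs and went the other way (-2.02, -3.53 to -0.70). Averaged over the clusters by cells, the ratio was 0.38. Igfbp4, low in these cells, was at 19.8 CPM with ATRA+agonist and 31.8 CPM with DMSO vehicle (-0.68, -0.99 to -0.37), and in the arterial cluster at 123 and 208 CPM (-0.76, -1.20 to -0.33). The class ratio of Igfbp4 was -0.10 without doublet removal and -1.30 without the interferon-response cluster. Igfbp3 had a ratio of 0.37 over the class but of -0.14 without the interferon-response cluster. With the unnamed low-depth cluster added, the class ratios were 0.58 for Igfbp7 and -0.51 for Igfbp4, both under 1.5-fold.

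**Figure D3:**
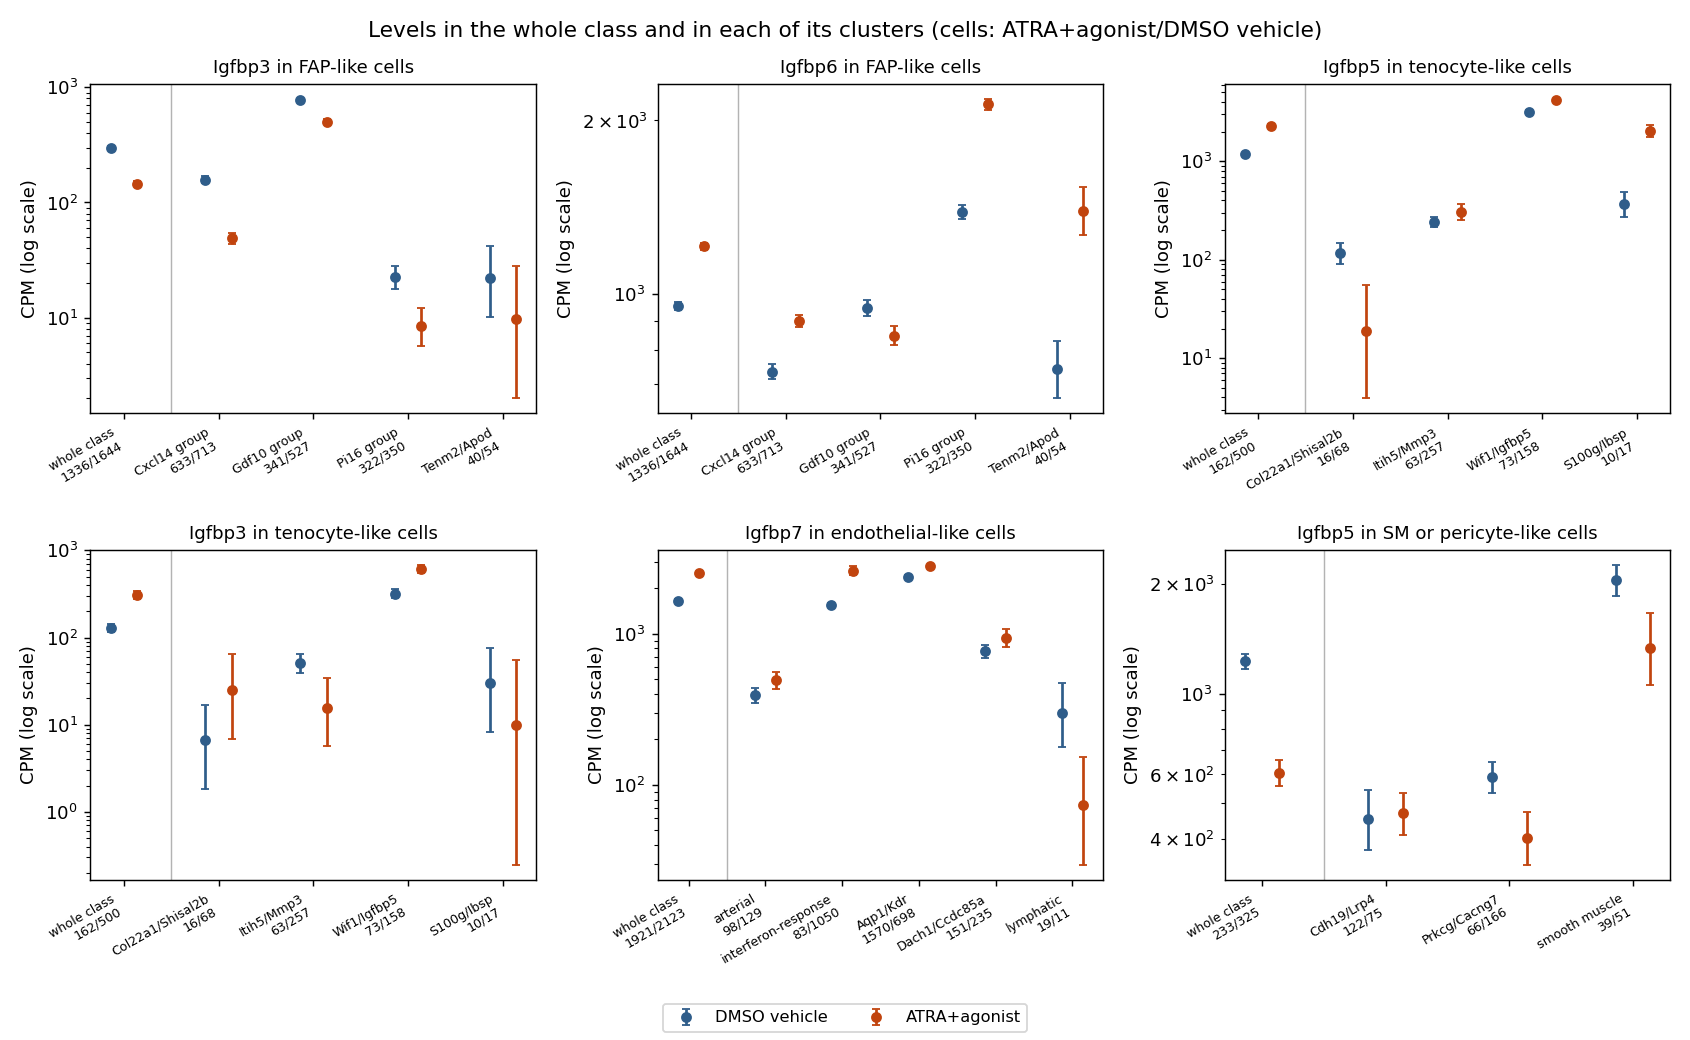
CPM on a log scale (vertical axis) of 6 gene and class pairs, over the whole class (left of the grey line) and in each of its clusters with at least 10 cells per library, with exact 95% counting intervals and the numbers of cells under each name. Igfbp3 is lower with ATRA+agonist in each named FAP-like group, whereas Igfbp5 in the smooth muscle or pericyte-like cluster led by Cdh19 and Lrp4 lies at 469 and 452 CPM although the class lies at 606 and 1227 CPM.

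In smooth muscle or pericyte-like cells 3 of 6 genes differed, against 10.7% of all genes. Igfbp5 was at 606 CPM (557 to 658) with ATRA+agonist and 1227 CPM (1167 to 1288) with DMSO vehicle (-1.02, -1.16 to -0.88). Igfbp4 was at 62.6 and 149 CPM (-1.25, -1.69 to -0.82), and Igf2 at 89.6 and 53.9 CPM (0.73, 0.26 to 1.21) from 83 and 70 UMIs. The class held fewer smooth muscle transcripts with ATRA+agonist, with 2737 CPM of smooth muscle markers against 4670 CPM, all 5 detected in both. A subcluster led by Csmd1 and Kcnt2, 6 cells with ATRA+agonist and 33 with DMSO vehicle, had 3364 and 3983 CPM of Igfbp5, and without it the class ratio of Igfbp5 was -0.71. With the same shares in both libraries of the clusters with at least 10 cells per library, the ratio of Igfbp5 was -0.42, under 1.5-fold. Those of Igfbp4 and Igf2 were -0.62 and 0.94. Within the clusters the Igfbp5 ratio was 0.05 (-0.28 to 0.39), -0.55 (-0.84 to -0.27) and, in the smooth muscle cluster, -0.62 (-0.98 to -0.27). With at most 10% mitochondrial UMIs it was 0.02 over the class, and that of Igfbp4 was -0.20.

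In Schwann-like cells 2 of 5 genes differed, against 11.3% of all genes. Igfbp5 was at 284 CPM with ATRA+agonist and 168 CPM with DMSO vehicle (0.75, 0.50 to 1.0), and Igfbp4 at 41.1 and 120 CPM (-1.54, -2.12 to -1.01). Few cells held these UMIs. Igfbp5 was seen in 12.4% and 7.42% of the cells, and the tenth with the most held 98.6% and 100% of its UMIs. Igfbp4 had 32 and 236 UMIs, in 5.84% and 21.7% of the cells. The makeup of the class also differed between the libraries, and its part in these ratios was not tested. Macrophage markers summed to 243 CPM (7 of 9 detected) with ATRA+agonist and 2121 CPM (8 of 9) with DMSO vehicle, and 16 of 137 and 137 of 391 Schwann-like cells had 2 or more macrophage marker UMIs. Without these cells the ratio of Igfbp4 was 1.69 and that of Igfbp5 0.34, and without the hemoglobin filter that of Igfbp5 was -0.31.

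MuSC-like cells had no difference among 7 genes, against 7.07% of all genes, and monocyte or macrophage-like cells had none among 4, against 4.58%. In MuSC-like cells Igfbp5, which is induced in myogenic differentiation, came closest, at 853 CPM (821 to 884) with ATRA+agonist and 613 CPM (589 to 638) with DMSO vehicle, a log2 ratio of 0.48 (0.40 to 0.56). Igf1r was at 427 and 488 CPM (-0.19, -0.29 to -0.09), Igf2r at 282 and 315 CPM (-0.16, -0.29 to -0.04) and Igf2 at 81.7 and 92.2 CPM (-0.17, -0.41 to 0.06). In monocyte or macrophage-like cells Igf1 was at 157 and 146 CPM (0.11, -0.05 to 0.27).

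Across the 7 classes the log2 ratio of Igf1r lay between -0.19 and -0.05, its sign depending on the processing in 4 of them (endothelial-like, tenocyte-like, Schwann-like and monocyte or macrophage-like). The ratio of Igf2r lay between -0.16 and 0.22 in the classes with enough UMIs other than monocyte or macrophage-like cells, where 58 UMIs in each library gave -0.50 (-1.05 to 0.05). No receptor reached 1.5-fold in a compared class.

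The 42 other genes of the pathway gave 193 gene and class pairs with enough UMIs, of which 4 were higher and 14 lower with ATRA+agonist (9.33% together), beside 3.32% higher and 4.5% lower of all 50930 pairs. These counts are not read as a result about the pathway as a group, and the ratios below carry the same differences in class makeup as those of the IGF system genes. With the same cluster shares in both libraries, 14 of the 18 stayed past 1.5-fold. Among the genes that control ligand supply, Stat5a, which carries the growth hormone signal to Igf1, was lower in 4 classes: FAP-like (24.3 and 40.2 CPM, -0.72), tenocyte-like (-1.19), Schwann-like (-0.79) and monocyte or macrophage-like cells (-0.67). Socs2, a feedback inhibitor of that signal, was lower in FAP-like (27.7 and 42.9 CPM, -0.63) and tenocyte-like cells (-0.84), and Ghr, the growth hormone receptor, in Schwann-like cells (-1.02). With the same cluster shares Socs2 in FAP-like cells was at -0.56, under 1.5-fold. Among the proteases, Htra1 was higher in FAP-like (174 and 112 CPM, 0.64) and tenocyte-like cells (240 and 119 CPM, 1.02) and lower in Schwann-like cells (150 and 406 CPM, -1.43), and Pappa2 was higher in tenocyte-like cells (133 and 68.5 CPM, 0.96). With the same cluster shares the tenocyte-like ratios were 0.68 for Htra1 and 0.36 for Pappa2, the latter under 1.5-fold. Without the Schwann-like cells that had 2 or more macrophage marker UMIs, the Schwann-like ratios were -0.60 for Ghr, -0.66 for Stat5a and -0.59 for Htra1.

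Among the adapters, Irs1 and Irs2, which couple the receptor to PI3K, were lower in smooth muscle or pericyte-like cells (-0.70 and -0.90), and with the same cluster shares Irs2 was at -0.52, under 1.5-fold. Downstream, Foxo3, a transcription factor held back by AKT, was lower in MuSC-like (53.8 and 102 CPM, -0.93, -1.19 to -0.67) and smooth muscle or pericyte-like cells (-0.72), while Foxo4 was higher in MuSC-like cells (24.3 and 14.9 CPM, 0.71). Pdpk1, the kinase that activates AKT, was lower in monocyte or macrophage-like cells (99.3 and 165 CPM, -0.73), and Tsc1 in tenocyte-like cells (-0.60, -1.36 to 0.09), which was -0.56 with the same cluster shares. Without the subcluster led by Csmd1 and Kcnt2, the smooth muscle or pericyte-like ratios were -0.70 for Irs1, -0.95 for Irs2 and -0.80 for Foxo3.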

How the data were processed

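The authors deposited UMI counts per gene and barcode for each library, made with Cell Ranger 7.2.0 per the file headers from 10x Genomics 3-prime reads aligned to mm10 (GRCm38). The annotation release is not given in the sources used here. Gene positions came from GENCODE M21 and promoters from RefSeq. Cells had 300 to 5000 genes, under 20% mitochondrial and under 0.25% hemoglobin beta UMIs, and 7.5% were removed as doublets by a rebuilt DoubletFinder procedure. Clustering used 2000 variable genes without the IGF system and pathway genes, 30 principal components, 20 neighbors and a resolution of 0.8 (igraph 0.11.9). Clusters with at least 3 raised markers were named, and 4 single-cluster classes were split again at 0.5. A name was withheld where markers of 2 classes were raised, where those of another class or immunoglobulin genes led, or at low depth. Naming limits were set after clusters had been seen. UMIs were summed per class and library. Named genes were the 10 genes, pathway genes past 1.5-fold with at least 100 UMIs, and the 3 most alike genes, of which 1 is not reported here. The call rule was tested on simulated data. Members and lists were chosen with earlier results of these data known. Each group was 1 library, so no p-value is given. Alternatives changed the doublet rate, the limits on hemoglobin, mitochondrial UMIs and genes, the resolution, the clustering genes, how cells were assigned, the depth per cell, the scaling, the UMI minimum and the makeup of a class.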

Additional observations from a re-analysis of the deposited data

Results flagged for a closer look

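Results were marked here for opposite directions in different cell classes, or for a level in barcodes left out of the comparisons. Igfbp3 was lower with ATRA+agonist in FAP-like cells (log2 ratio -1.04) and higher in tenocyte-like cells (1.27). Igfbp5 was higher in tenocyte-like cells (0.95) and Schwann-like cells (0.75) and lower in smooth muscle or pericyte-like cells (-1.02). These differences between classes were not tested, since each group is 1 library.

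Barcodes with at least 50% hemoglobin UMIs, 2314 with ATRA+agonist and 8125 with DMSO vehicle, were not among the kept cells. Of their other UMIs, Igf2 made up 20.3 CPM with ATRA+agonist (14 UMIs) and 7.52 CPM with DMSO vehicle (22 UMIs), a log2 ratio of 1.43. Igfbp3 made up 83.9 CPM (58 UMIs) and 47.8 CPM (140 UMIs), a log2 ratio of 0.81. Igf1 and Igfbp4 were lower: Igf1 made up 17.4 CPM (12 UMIs) and 48.5 CPM (142 UMIs), a log2 ratio of -1.48 (-2.47 to -0.63), and Igfbp4 made up 44.8 CPM (31 UMIs) and 122 CPM (357 UMIs), a log2 ratio of -1.44 (-2.02 to -0.91). The 95% counting intervals of Igf1r, Igf2r, Igfbp5, Igfbp6 and Igfbp7 held 0.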

How the results depend on the processing

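No paired analysis was possible because each group is 1 library. In 20 alternatives, 5 of them chosen after seeing the data, 9 of the 13 called ratios kept their direction wherever they could be computed, and only Igfbp3 in FAP-like cells also stayed past 1.5-fold in each. Pairs called higher numbered 8, but 5 at a doublet rate of 15% and 3 with the subtype ratios averaged by cells or with the same subtype shares in both libraries. Pairs called lower numbered 5, but 3 without doublet removal. In the other alternatives both counts stayed within 1.5 times. Igfbp3 in tenocyte-like cells turned to -0.31 with averaged subtype ratios. Igfbp4 in Schwann-like cells turned to 0.022 with averaged subtype ratios and to 1.69 without cells with macrophage marker UMIs. Igfbp5 in Schwann-like cells turned to -0.035 without doublet removal and -0.31 without the hemoglobin filter, and at most 10% mitochondrial UMIs turned Igfbp5 in the smooth muscle or pericyte class to 0.023. The cause was not tested. Median-of-ratios scaling moved the median of all genes by at most 0.07 (endothelial-like cells) and turned the direction of no called ratio. It took Igfbp7 in endothelial-like cells under 1.5-fold, which that ratio passed in 9 of 17 alternatives. Genes under 100 UMIs in a class could not be compared at this depth.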

Other observations

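Among the cells left unnamed, a cluster led by the mast cell proteases Cma1 and Mcpt4 (218 cells with ATRA+agonist, 42 with DMSO vehicle) had 339 and 112 CPM of Igf1r. A cluster led by Car3 and Cfd (68 and 107 cells) had 693 and 698 CPM of Igf1r. A low-depth group led by Cxcl14 and C3 (88 and 80 cells) had 2239 and 3101 CPM of Igfbp6 and 1475 and 1598 CPM of Igfbp5. The 229 myonuclei-like cells, which were found in the ATRA+agonist library alone, had 208 CPM of Igfbp7 (79 UMIs) and 60.5 CPM of Igfbp5 (23 UMIs).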
